A study of Mus musculus with 6 samples.

Results

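Messenger RNA of 10 target genes of the tumour suppressor p53 was compared in the epithelium of the mouse common bile duct. The genes are Mdm2, Phlda3, Zmat3, Ccng1, Sesn2, Trp53inp1, Pmaip1, Bbc3, Bax and Fas, taken by the gene name that the array design gives to each probe. They have 15 of the 56605 non-control probes, and all 10 were among the 20736 genes tested. The 3 DOX+ samples are labelled as C57BL/6 iFGF10 mice given 0.02% doxycycline in their water for 5 days. The 3 DOX- samples carry the same strain and iFGF10 labels, with water alone for 5 days. Doxycycline is an antibiotic that can turn on transgenes built with tetracycline-responsive promoters. Neither the promoter nor the cells that drive Fgf10 in these mice are named in the sources used here. The descriptions of the DOX- samples, however, hold WT and a pair of numbers, so whether each control is 1 mouse or a pool, and whether it carried the construct, is not known from the labels. No doxycycline-treated mice without the construct were analysed here, so effects of the drug and of the induced gene cannot be told apart.

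p53 is a transcription factor that is held at a low level by the ubiquitin ligase Mdm2 and is stabilised by DNA damage, oncogene activity and other stress. It then activates genes that stop the cell cycle, aid DNA repair or lead to cell death. One of its targets is Mdm2 itself, which closes a feedback loop on p53. Several of the targets also respond to other stress factors. Pmaip1 and Sesn2, for example, are also activated by ATF4, a transcription factor of the amino acid and endoplasmic reticulum stress response.

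Each RNA was hybridised to 1 Agilent 1-colour array. Levels are given as log2 of the background-treated spot signal from the scanner output of each array, minus the log2 of that array's 75th percentile. A level of 0 is thus the 75th percentile, and a difference of 1 is 2-fold. The level of one probe cannot be set against that of another. Between 55.9% and 61.9% of the spots on an array were well above background, and the number of arrays, 3 in each group, limits the precision. None of the 3 Fgf10 probes was well above background on even 1 of the 6 arrays. Whether they match the induced transcript is not known, so they are no check of the labels. The epithelial markers Krt7, Krt19 and Epcam were well above background on every array, and so were the fibroblast gene Col1a1 and the smooth muscle gene Acta2. In such mixed samples fewer cells of a type and less RNA per cell cannot be told apart. The 3 DOX+ arrays and DOX- replicate 1 lay in the first row of 1 slide, and DOX- replicates 2 and 3 lay in its second row.

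Regulatory sequence from RefSeq (GRCm38.p6), as the 250 bases before each transcription start, is reported for 7 of the 10 genes. Pmaip1, Zmat3 and Trp53inp1 are not among the 7, so whether their windows hold the motif below is not given here. The p53 decamer, the 10-base unit of which a p53 response element holds a pair, was searched for there. It reads the same on both strands as a consensus, so a single search covers both. It occurred in the windows of Mdm2, Ccng1 and Bax, and not in those of Phlda3, Sesn2, Bbc3 and Fas. Of all 32851 promoter windows, 7.13% held it. A pair of decamers with up to 13 bases between them occurred in 21 windows, none of them a window of these genes. A match is a description of the letters and not evidence of binding, and p53 elements of these genes may lie outside the windows. The matching windows are shown together with that of Phlda3, the gene of the largest difference among the 7, with the decamer in capitals.
Mdm2 promoter, chr10:117710759-117711008, minus strand: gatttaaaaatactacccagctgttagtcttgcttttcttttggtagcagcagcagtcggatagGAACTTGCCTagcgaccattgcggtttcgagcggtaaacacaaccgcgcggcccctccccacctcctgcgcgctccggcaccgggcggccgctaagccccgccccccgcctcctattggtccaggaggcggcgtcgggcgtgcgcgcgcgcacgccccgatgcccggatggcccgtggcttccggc
Ccng1 promoter, chr11:40755287-40755536, minus strand: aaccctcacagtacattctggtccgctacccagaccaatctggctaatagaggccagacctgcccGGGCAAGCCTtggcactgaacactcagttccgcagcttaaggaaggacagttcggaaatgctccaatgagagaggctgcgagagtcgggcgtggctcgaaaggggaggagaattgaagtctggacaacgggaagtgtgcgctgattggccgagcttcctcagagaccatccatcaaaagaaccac
Bax promoter, chr7:45466899-45467148, minus strand: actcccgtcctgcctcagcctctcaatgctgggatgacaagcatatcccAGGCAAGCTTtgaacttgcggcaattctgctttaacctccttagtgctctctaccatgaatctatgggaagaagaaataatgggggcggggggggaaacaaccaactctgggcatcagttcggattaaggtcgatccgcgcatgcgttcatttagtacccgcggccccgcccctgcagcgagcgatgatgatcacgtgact
Phlda3 promoter, chr1:135765835-135766084, plus strand: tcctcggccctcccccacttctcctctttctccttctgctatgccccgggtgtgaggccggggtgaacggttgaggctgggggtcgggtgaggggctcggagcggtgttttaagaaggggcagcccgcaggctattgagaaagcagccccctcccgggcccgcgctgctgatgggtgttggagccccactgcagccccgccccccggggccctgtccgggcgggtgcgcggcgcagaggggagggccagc

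The p53 targets did not share one direction in the DOX+ samples. Pmaip1 was 2.73-fold and Phlda3 1.78-fold lower in DOX+, each with 3 DOX+ arrays below all 3 DOX- arrays, while Mdm2, the feedback target, had nearly equal means. The mean was lower in DOX+ for 7 members and higher for 3, where 51.8% of all genes had a lower mean. Mdm2, with a difference of -0.001, is counted among the 7. The median log2 difference of the members was -0.28, against -0.01 for all genes tested, and the members' median was -0.10 within the first slide row and -0.16 without DOX- replicate 3. None of the 10 passed the limma test over all genes (Benjamini-Hochberg adjusted p under 0.05), which 8 genes or 0.0386% passed, 0.0193% of all genes as lower. The groups did not overlap for 3 of the 10, all lower in DOX+, where 10.9% of all genes were lower and 10.1% higher without overlap. These 3, Pmaip1, Phlda3 and Bax, are not the same 3 that had an unadjusted limma p under 0.05 (Pmaip1, Phlda3 and Bbc3, all lower), a threshold that 13.3% of all genes met, 6.32% as lower and 7.02% as higher. The last 3 also had log2 differences beyond -0.5, as had 7.95% of all genes. All 10 genes were well above background on all 6 arrays, so none entered through 1 group alone.

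**Figure D1:**
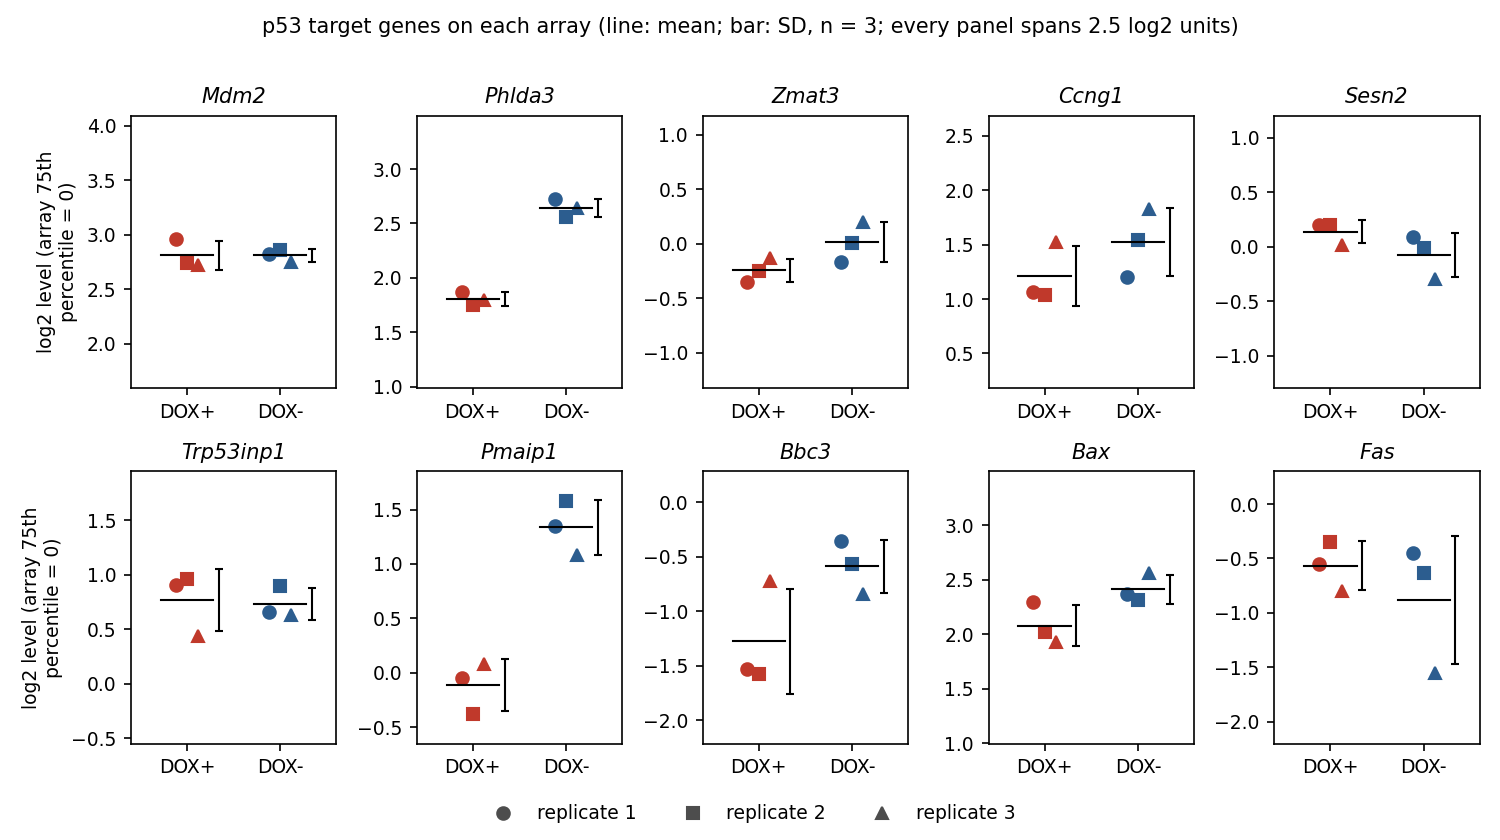
Log2 level of each p53 target on each array, by its brightest probe, with DOX+ left and DOX- right, symbols for replicates, a line for the mean and a bar for the SD (n = 3). Every panel spans the same range of log2 units; Pmaip1 and Phlda3 show separate groups, and Mdm2 lies between 2.72 and 2.96 on all arrays.

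Among the death genes, Pmaip1 encodes Noxa, a BH3-only protein that binds the survival factor Mcl1. Its level was -0.04, -0.38 and 0.09 in DOX+ replicates 1 to 3, against 1.35, 1.58 and 1.08 in DOX- replicates 1 to 3. All DOX+ arrays lay below all DOX- arrays, and the gap between the groups was larger than the range within either. The log2 difference was -1.45 (SE 0.19, 95% interval -1.92 to -0.98), the 38th smallest p of 20736 genes, with a limma adjusted p of 0.129. Within the first slide row, where DOX- replicate 1 is the only control, it was -1.46. Its only probe lies on chromosome 18 (mm9, 66625088 to 66625147).

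Bbc3 encodes Puma, a BH3-only protein that binds all the survival members of the BCL2 family. Its level was -1.54, -1.58 and -0.72 in DOX+, against -0.36, -0.57 and -0.84 in DOX-. DOX+ replicate 3 lay above DOX- replicate 3, so the groups overlapped. The log2 difference was -0.69 (SE 0.27, limma adjusted p = 0.364). It ran from -0.97 without DOX+ replicate 3 to -0.54 without DOX+ replicate 2, and was -0.92 within the first slide row. The Bbc3 probe lies on chromosome 7 (mm9, 16903403 to 16903462).

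Bax, a pore-forming protein of the outer mitochondrial membrane, carries out the step that Noxa and Puma promote. Its brighter probe gave 2.29, 2.02 and 1.93 in DOX+ and 2.37, 2.31 and 2.56 in DOX-. The groups did not overlap, but the highest DOX+ array and the lowest DOX- array were almost equal. The log2 difference was -0.33 (SE 0.15, 95% interval -0.70 to 0.03, limma adjusted p = 0.404). The second probe gave 0.82, 0.66 and 0.75 in DOX+ and 0.77, 1.02 and 1.24 in DOX-, a difference of -0.27 with overlapping groups.

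Fas, the death receptor on the cell surface, is represented by probes that do not give the same direction. The brightest, on chromosome 19 (mm9, 34402164 to 34402223), gave -0.55, -0.35 and -0.80 in DOX+ and -0.45, -0.64 and -1.55 in DOX-. DOX- replicate 3 alone lay below the other 5 arrays. The log2 difference of 0.31 (SE 0.31, limma adjusted p = 0.690) was -0.02 without that array and -0.12 within the first slide row. A dim probe for another Fas transcript on chromosome 19 (34383733 to 34383792) gave -4.63, -4.95 and -4.80 in DOX+ and -3.74, -4.01 and -4.72 in DOX-, a difference of -0.64. Its spots exceeded the background threshold on 3 DOX+ arrays and 2 DOX- arrays. In the fit over all probes its limma adjusted p was 0.390. A further probe carries the name Fas but is placed on chromosome 4 (mm9, 40555124 to 40555183), away from the gene. Its difference was 0.02, and it is used as a measure of Fas only in the alternative that averages the probes of each gene.

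**Figure D2:**
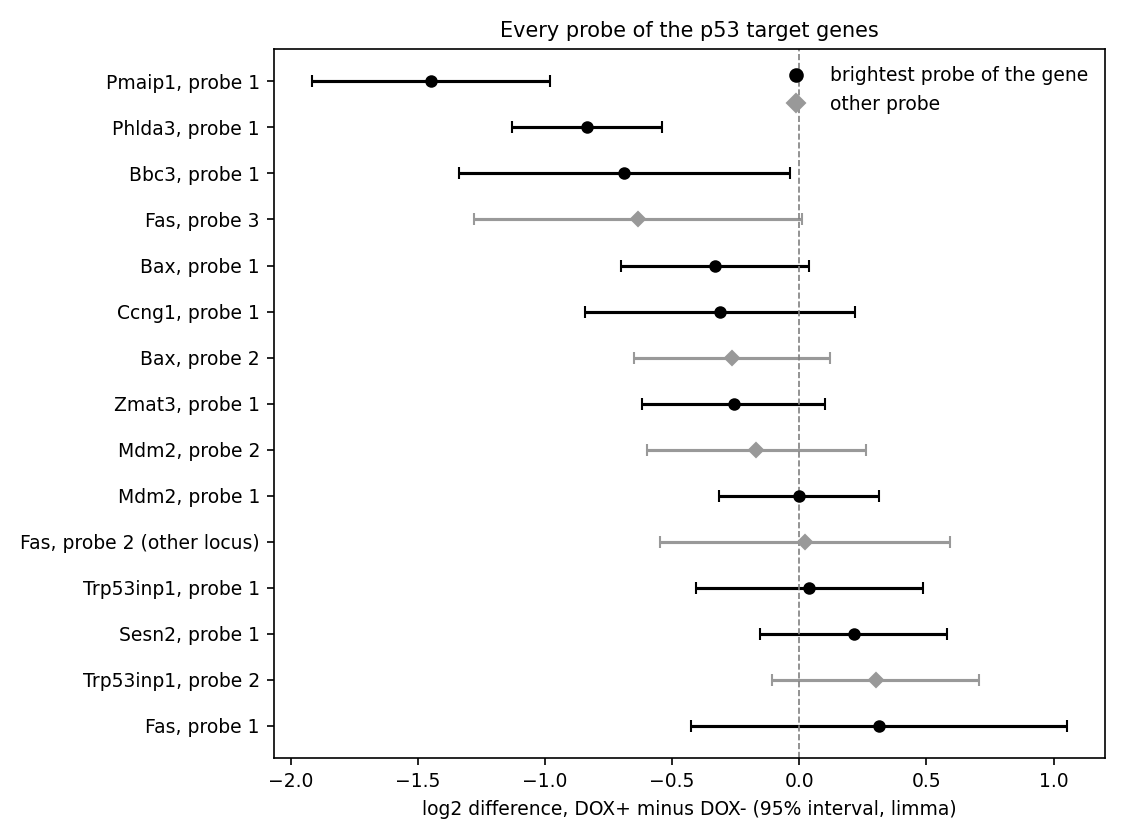
Log2 difference, DOX+ minus DOX-, with the 95% interval of the limma fit over all 31719 probes, for each of the 15 probes of the p53 targets. The intervals of Pmaip1, Phlda3 and Bbc3 lie below 0, and the 3 probes named Fas are spread from -0.64 to 0.31.

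Phlda3 encodes a small protein with a pleckstrin homology domain that keeps the kinase Akt from the membrane. Its level was 1.87, 1.75 and 1.79 in DOX+, against 2.73, 2.56 and 2.64 in DOX-. Of the 10 genes its difference had the smallest SE, and its level had an SD of 0.06 in DOX+ and 0.08 in DOX- (n = 3 each). The log2 difference was -0.84 (SE 0.12, 95% interval -1.12 to -0.55), the 49th smallest p of all genes, with a limma adjusted p of 0.135. Within the first slide row it was -0.92. Its only probe lies on chromosome 1 (mm9, 137665642 to 137665701).

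Pmaip1 and Phlda3 thus missed the threshold by the adjustment over all genes. Over the 16 alternatives of processing and of arrays left out, the adjusted p ran from 0.0208 to 0.565 for Pmaip1 and from 0.0274 to 0.565 for Phlda3. Both passed only with array weights, which weighted DOX- replicate 2 at 6.09. That setting called 606 genes or 2.92% of all genes, 1.23% as lower, and these 2 of the 10.

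Mdm2, the ubiquitin ligase that degrades p53, was at 2.96, 2.74 and 2.72 in DOX+ and at 2.83, 2.86 and 2.75 in DOX-. The DOX+ arrays spread over the whole range of the DOX- arrays. The means were 2.81 ± 0.13 in DOX+ and 2.81 ± 0.06 in DOX- (SD, n = 3 each). The 95% interval of the difference, -0.31 to 0.31, leaves room for changes of that size in either direction, and with quantile normalization the difference was 0.098. A second, dimmer Mdm2 probe gave -1.51, -1.54 and -1.62 in DOX+ and -1.26, -1.17 and -1.73 in DOX-, a difference of -0.17 (SE 0.18).

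The second probes of Mdm2 and Bax are of interest because they match 60 bases spread over 2879 and 156 bases of the genome, as probes across a splice junction do. The annotation of the exons on mm9 was not used here. Both are given on mm9, minus strand, with no base marked, and are called junction probes for their span alone.
Mdm2 junction probe, chr10:117139375-117142253: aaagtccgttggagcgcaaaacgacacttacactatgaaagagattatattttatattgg
Bax junction probe, chr7:52721469-52721624: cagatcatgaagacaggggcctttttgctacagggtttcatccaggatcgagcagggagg
For Bax both probes were lower in DOX+, with differences of -0.33 and -0.27. For Mdm2 the differences of the 2 probes were -0.001 and -0.17, and in neither did the groups separate.

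Ccng1 encodes cyclin G1, which recruits the phosphatase PP2A to Mdm2. It was at 1.07, 1.04 and 1.53 in DOX+ and at 1.20, 1.54 and 1.83 in DOX-. The groups overlapped through DOX+ replicate 3. The log2 difference was -0.31 (SE 0.22, limma adjusted p = 0.569), but 0.01 within the first slide row. Zmat3, a zinc finger protein that binds RNA, was at -0.35, -0.25 and -0.13 in DOX+ and at -0.17, 0.01 and 0.20 in DOX-. The only overlap was between DOX+ replicate 3 and DOX- replicate 1, and the difference of -0.26 (SE 0.15) was -0.08 within the first slide row.

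Sesn2 and Trp53inp1 had slightly higher means in DOX+. Sesn2 encodes a sestrin that restrains the growth kinase mTORC1, and was at 0.20, 0.21 and 0.02 in DOX+ and at 0.09, -0.01 and -0.30 in DOX-. DOX+ replicate 3 lay below DOX- replicate 1, and the difference was 0.21 (SE 0.15, limma adjusted p = 0.564), or 0.05 within the first slide row. Trp53inp1, a stress-induced nuclear protein that also takes part in autophagy, was at 0.91, 0.96 and 0.44 in DOX+ and at 0.65, 0.90 and 0.63 in DOX-. The difference of its brighter probe was 0.04 (SE 0.18), and that of its other probe 0.30 (SE 0.17), and the groups overlapped for the first, whose difference was -0.061 with median scaling. The other probe was at -2.37, -1.98 and -2.41 in DOX+ and at -2.57, -2.41 and -2.69 in DOX-. DOX+ replicate 3 and DOX- replicate 2 were equal to 2 decimals, so these groups only just failed to overlap.

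The members did not share one array at the extreme. The lowest of the 6 arrays was DOX+ replicate 2 for 4 genes, DOX+ replicate 3 for 3, DOX- replicate 3 for 2 and DOX+ replicate 1 for 1. Among the DOX+ arrays, replicate 3 had the highest level of Bbc3, Ccng1, Zmat3 and Pmaip1, and the lowest of Mdm2, Bax, Sesn2, Trp53inp1 and Fas. The median over the 10 genes was 0.55, 0.58 and 0.26 in DOX+ replicates 1 to 3 and 0.93, 1.22 and 0.86 in DOX- replicates 1 to 3.

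**Figure D3:**
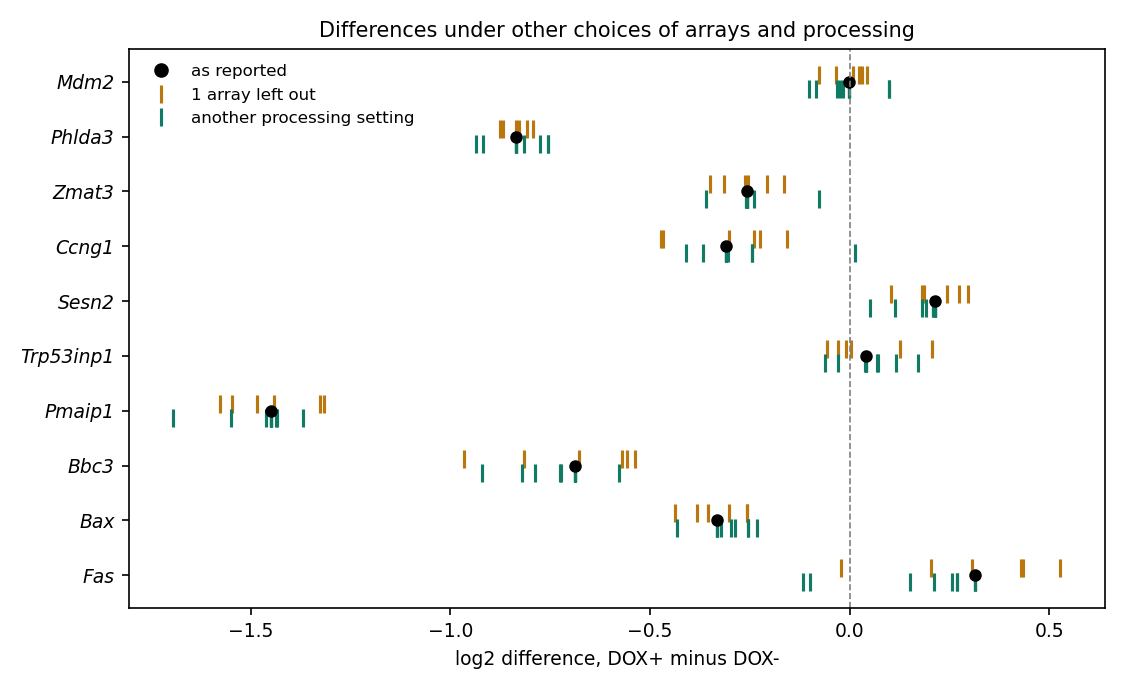
Log2 difference, DOX+ minus DOX-, of each p53 target as reported (circle), with each of the 6 arrays left out in turn (upper marks) and under 10 other processing settings (lower marks). Pmaip1 stays between -1.69 and -1.32 and Phlda3 between -0.94 and -0.75, while Mdm2, Trp53inp1, Fas and Ccng1 have values on both sides of 0.

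Other genes of the p53 pathway were taken from 6 lists with 104 names, of which 91 were tested. None of the 91 passed the limma test over all genes, and at an unadjusted limma p under 0.05 14 were lower and 3 higher, where 6.32% of all genes were lower and 7.02% higher. Without overlap between the groups, 18 were lower and 7 higher in DOX+, which is 27.5% of the 91, against 21.0% of all genes. Their median log2 difference was -0.09.

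The means of p53 itself were nearly equal. Trp53 was at -1.60, -1.92 and -2.10 in DOX+ and at -1.67, -1.60 and -2.33 in DOX-, with means of -1.87 in each group and a 95% interval of the difference from -0.60 to 0.59. Mdm4, the relative of Mdm2 that masks the p53 activation domain, differed by 0.01 (SE 0.15). The groups of 2 of the 18 regulators tested did not overlap, where those of 21.0% of all genes did not. Of the 18, 14 were lower and 4 higher (median -0.10). That median was -0.15 without DOX- replicate 1, -0.051 without DOX- replicate 3 and -0.038 without DOX+ replicate 3. Cop1, another ubiquitin ligase of p53, was at 1.89 ± 0.02 in DOX+ and 2.28 ± 0.24 in DOX- (SD, n = 3 each), a difference of -0.39. The kinase Atm differed by 0.20 (SE 0.13), and its groups only just failed to overlap (lowest DOX+ array -1.16, highest DOX- array -1.19). The checkpoint kinase Chek1 differed by -0.86 (SE 0.47) and exceeded the background threshold on 1 DOX+ array and 3 DOX- arrays.

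Of 11 targets that act on the cell cycle 7 were lower and 4 higher (median -0.30). Cdkn1a encodes the CDK inhibitor p21 and is the best known of them. It was at -1.85, -1.17 and 0.34 in DOX+, against -0.57, -0.51 and -0.72 in DOX-. The 3 DOX- arrays lay close together, and the DOX+ arrays lay on both sides of them, with replicate 3 the highest (difference -0.30, SE 0.53). Sfn, the epithelial 14-3-3 protein stratifin, was at 2.66, 2.12 and 2.64 in DOX+ and at 3.96, 4.02 and 3.53 in DOX-. Its groups were separate, with a difference of -1.37 (SE 0.22, limma adjusted p = 0.151). Plk2, a polo-like kinase, and Gadd45a, a growth arrest protein, were also lower without overlap, with differences of -0.61 (SE 0.13) and -0.59 (SE 0.17). The list's median depends on single arrays: it was 0.08 without DOX+ replicate 1 and -0.61 without DOX+ replicate 3.

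Without overlap, 4 of 14 targets that act in cell death were lower, as were 10.9% of all genes. Of the 14, 9 had lower and 5 higher means (median -0.19). That median was -0.072 without DOX+ replicate 1, -0.099 without DOX- replicate 3 and -0.064 within the first slide row. Aen, an exonuclease of apoptotic DNA breakdown, was at 2.04, 1.95 and 1.64 in DOX+ and at 2.59, 2.55 and 3.10 in DOX-. Its difference was -0.87 (SE 0.20, limma adjusted p = 0.211). Bid, a BH3-only protein cut by caspase 8, was at -0.73, -0.18 and -1.04 in DOX+ and at 0.20, 0.33 and 0.36 in DOX-, a difference of -0.95 (SE 0.23, limma adjusted p = 0.223). Trp53i11 differed by -0.47 (SE 0.15). All 3 genes had separate groups.

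Of 11 targets listed under DNA repair, 9 had higher and 2 lower means in DOX+ (median 0.13). That median was 0.026 with median scaling, 0.010 without DOX- replicate 3 and 0.20 without DOX- replicate 1. The groups of 2, Ddb2 and Dcxr, did not overlap, where those of 21.0% of all genes did not. Ddb2, a sensor of ultraviolet damage, was at 1.03, 0.93 and 1.02 in DOX+ and at 0.62, 0.64 and 0.13 in DOX-, a difference of 0.53 (SE 0.17, limma adjusted p = 0.304). Dcxr, which is a carbonyl reductase of sugar metabolism and not a repair enzyme, differed by 0.26 (SE 0.13), with its lowest DOX+ array and highest DOX- array both at 1.70. Xpc, which starts nucleotide excision repair, differed by 0.25 (SE 0.15) with overlap.

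Targets of metabolism and secretion were split, with 9 of 19 higher, 10 lower and a median of -0.05, which was 0.14 without DOX+ replicate 2 and 0.093 without DOX- replicate 1. Thbs1, the matrix glycoprotein thrombospondin 1, was at -0.03, 1.07 and 0.03 in DOX+ and at 1.71, 1.76 and 1.76 in DOX-, a difference of -1.39 (SE 0.31, limma adjusted p = 0.200). Cpt1c, a carnitine palmitoyltransferase relative, differed by 0.70 (SE 0.25). The groups of both were separate, those of Cpt1c only just (lowest DOX+ array -1.53, highest DOX- array -1.54).

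Of 18 BCL2 family members and death receptor partners 15 were lower and 3 higher in DOX+ (median -0.12). That median was -0.20 without DOX- replicate 1 and -0.062 without DOX- replicate 3. Without overlap 5 were lower and 1 higher, where 10.9% of all genes were lower and 10.1% higher. The higher one, the BH3-only gene Bik, differed by 0.31 (SE 0.14) and is named after its values were seen. Bak1, which forms pores beside Bax, was at 2.13, 1.52 and 2.24 in DOX+ and at 2.38, 2.61 and 2.86 in DOX-. Its difference was -0.65 (SE 0.24, limma adjusted p = 0.333). Bok, a further pore-forming relative, differed by -0.40 (SE 0.17), and the BH3-only gene Bmf by -0.55 (SE 0.23) with overlap.

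**Figure D4:**
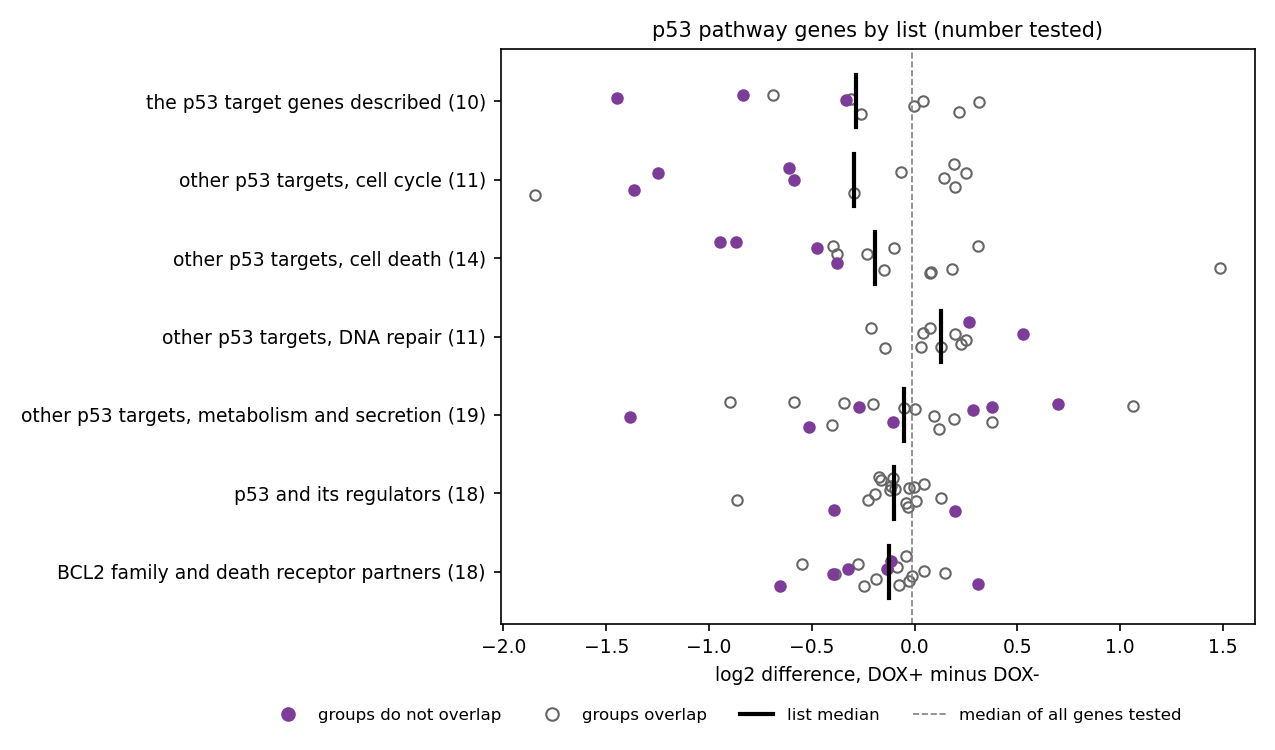
Log2 difference, DOX+ minus DOX-, of each gene of the p53 lists (points; filled where the groups do not overlap), with the median of each list (bar) and of all genes tested (dashed line). The DNA repair list has its median at 0.13, to the right of all genes, and the other lists have theirs between -0.30 and -0.05.

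Markers of some cell types and of dividing cells had unequal levels, though none of those tested passed the limma test over all genes, and their part in the values of the p53 targets was not tested. Of 9 bile duct epithelium markers tested 8 were lower in DOX+, with a median of -0.21. Their summed level, in units of the array's 75th percentile, was 462 to 509 in DOX+ and 516 to 693 in DOX-. Most of that sum came from Krt18, Krt8 and Krt19. The 516 was that of DOX- replicate 1, the only control in the first slide row, and lay close to the highest DOX+ array. Krt7, a keratin of duct epithelium, differed by -1.02 (SE 0.19), Krt19 by -0.27 and Epcam by -0.21. The 9 mitosis genes tested had lower means in DOX+, but 3 of them were well above background on only 2 DOX+ arrays and so passed the filter through DOX- alone. Their summed levels overlapped, at 1.06 to 3.85 in DOX+ and 3.07 to 7.48 in DOX-. Among them Mki67 differed by -1.25 (SE 0.52) and Top2a by -1.66 (SE 0.67), both with overlap. Of 8 mast cell markers 7 were higher, 1 of which (Fcer1a) passed the filter through DOX+ alone, with summed levels of 7.74 to 102.3 in DOX+ and 2.33 to 5.79 in DOX-. Mcpt1 differed by 5.57 and Mcpt2 by 2.13. Mcpt1 was highest on DOX+ replicate 3, at 5.42. All 7 endothelial markers were higher, with summed levels of 14.1 to 18.5 in DOX+ and 8.19 to 11.7 in DOX-, and Pecam1 differed by 0.54 and Cdh5 by 0.13.

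The other cell types had overlapping summed levels, as the mitosis genes had. Of 8 fibroblast markers 4 were higher and 4 lower, with Col1a1 at -0.81 (SE 0.36) and Col1a2 at -0.40. Their summed level was 89.5 to 143 in DOX+ and 106 to 162 in DOX-. Of 7 smooth muscle markers 4 were higher and 3 lower, with Acta2 at 0.36 and Myh11 at 0.54, and summed levels of 80.1 to 180 in DOX+ and 60.3 to 311 in DOX-. Of 7 macrophage markers 3 were higher and 4 lower, with Adgre1 at -0.15 and Cd68 at -0.22, and summed levels of 23.2 to 30.3 in DOX+ and 19.6 to 38.1 in DOX-. Of 4 neutrophil markers tested 2 were higher and 2 lower, with S100a8 at -3.06 (SE 1.63) and S100a9 at -2.89 (SE 1.73). Ly6g, at 1.21 (SE 0.33), was the only one of the 4 whose groups did not overlap, and Elane was at 0.26 (both named after their values were seen). Their summed level was 2.00 to 13.3 in DOX+ and 3.74 to 63.9 in DOX-. Among T and B cell markers Cd3e was at -0.08 and Cd3d at -0.01, with summed levels of 2.16 to 2.41 in DOX+ and 2.00 to 2.32 in DOX-. Of 5 hepatocyte markers 2 were higher and 3 lower, with Alb at -0.29 and Apoa1 at 0.55, and summed levels of 66.8 to 123 in DOX+ and 57.9 to 139 in DOX-. All 5 pancreatic acinar markers had higher means in DOX+ (median 1.06), each with overlapping groups. Prss2 (1.23, SE 1.89) and Pnlip passed the filter through DOX+ alone. Cela1 was at 0.19, and the summed levels were 39.6 to 69.4 in DOX+ and 24.1 to 122 in DOX-.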

How the data were processed

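RNA of 3 DOX+ and 3 DOX- samples was hybridised to 1-colour Agilent arrays. Per the file headers, the authors made the deposited spot intensity with Agilent Feature Extraction 10.7.1.1 (9.5.1.1 per the submitters' processing notes), with spatial and multiplicative detrending within each array. The deposited files also hold 0 or 1 flags, which were used as the authors set them. The authors' processed values, whose sorted columns are equal within a relative 0.000342, were an alternative. Their scale is linear intensity; each column's median was 57.8, and each correlated with its own array at 0.998 or more.

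Spots flagged as outliers were left out, and spots of a probe were averaged in log2. Probes well above background on all 3 arrays of a group were kept where all arrays had a value (31719). The brightest probe represented a gene. Names came from the RefSeq table of GRCm38.p6: an accession named 32994 probes, a current symbol 10224 and an outdated symbol 520, while 12867 stayed as the file names them. DOX+ was set against DOX- in limma 3.58.1 (R 4.3.3; two-sided, Benjamini-Hochberg over 20736 genes). The fit was also run on simulated data without slide row effects or unequal array quality, which is no check on either. The members and lists were chosen with earlier results of these data known. All members are named. From each other p53 list the 3 genes with the smallest p are named, with Trp53, Mdm4 and Cdkn1a, and from each marker list the first 2. One gene that this rule names is not reported here. Epcam, Fcer1a and Pnlip were added after their values were seen, as were those so marked in the text. The labels do not say which animals each sample came from, so p-values cover only variation among these 6 samples, which may be technical.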

Additional observations from a re-analysis of the deposited data

How the results depend on the processing

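Of 16 alternatives, 6 left out an array and 10 changed the processing. Pmaip1, Phlda3, Bbc3, Bax, Zmat3 and Sesn2 kept their direction in all 16. Some of the 16 could not change it. Without a filter, with the stricter filter and with the replicate block, each of these genes had exactly its main difference. Averaging probes also changed nothing for those with a single probe. The number of members that passed was 0 in all but 1, with 2 under array weights (Pmaip1 at -1.69 and Phlda3 at -0.78). The number of all genes that passed, 8, was 2 with quantile normalization and with the authors' processed values, 5 with median scaling, 1 with no filter on dim probes, 5 with probes well above background on all 6 arrays, 606 with array weights and 0 to 30 without single arrays. Blocking by slide row left 0 (1409 genes at an unadjusted limma p under 0.05). With the replicate number as a block it was also 0 (2257 at an unadjusted p under 0.05). Deviations of same-numbered arrays correlated at -0.09, -0.13 and -0.02, and those of differently numbered arrays at -0.13 to 0.22. With 3 arrays in each group, these values cannot decide whether the numbers pair the samples. Leaving out DOX- replicate 2 left 0 by limma (1554 at an unadjusted p under 0.05), without DOX+ replicate 1 it was 24 higher and 6 lower, and without DOX- replicate 3 it was 3 higher and 16 lower. Of the 8 genes 50% were higher, against 60% of calls with median scaling, 42.9% with normexp and 57.8% with array weights.

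Mdm2, Trp53inp1, Fas and Ccng1 changed sign. Mdm2 was at 0.098 with quantile normalization and 0.098 with the authors' values, and between -0.078 and 0.043 without single arrays. Trp53inp1 was at -0.061 with median scaling, -0.030 with array weights, and between -0.056 and 0.21 without single arrays. Fas was at -0.10 as the mean of its probes, with the chromosome 4 probe included. It was at -0.12 when blocked by slide row, and between -0.023 and 0.53 without single arrays. Ccng1 was at 0.012 when blocked by slide row. The median over the members was -0.10 with the slide row block and between -0.35 and -0.16 without single arrays. Median scaling moved the median of all genes to -0.11. The median of the cell cycle targets was -0.54 with array weights and between -0.61 and 0.076 without single arrays. That of metabolism and secretion was -0.15 with median scaling, 0.040 with array weights and between -0.10 and 0.14 without single arrays. Apart from the arrays and genes that each alternative left out, the cause was not tested.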
